A study of Mus musculus with 6 samples.

Results

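The genes of major histocompatibility complex (MHC) antigen presentation were followed in fibroblasts of the enthesis, the place where tendon or ligament is anchored in bone, taken from SKG mice. Members were chosen by name. They are every gene whose symbol begins with H2-, the mouse MHC prefix, together with B2m, Tap1, Tap2, Tapbp, Tapbpl, Erap1, Nlrc5, Ciita, Cd74, Rfx5, Rfxap and Cd1d1. The rule found 44 of the 17419 genes in the table. Of these, 30 were put in class I, 13 in class II and 1, H2-Ke6, in neither class, because it encodes a hydroxysteroid dehydrogenase. After a filter on low counts 34 of the 44 could be tested, 23 in class I, 10 in class II and H2-Ke6. RNA from 6 bulk samples had been sequenced in paired reads, 3 of them labelled diseased and 3 un-diseased, and the samples of each group are numbered 1 to 3. Both groups are SKG mice, a strain with a mutation of the T cell kinase gene Zap70 that is prone to autoimmune arthritis. The labels give neither an age nor what brought on the disease, and the codes NTS and UN in the titles of the diseased and un-diseased samples are not explained there. The comparison asks how the antigen presentation genes of entheseal fibroblasts differ between diseased and un-diseased mice, in a series on ankylosing spondylitis.

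Class I molecules are found on nearly all nucleated cells and show peptides from inside the cell to cytotoxic T cells. Each has a heavy chain, from the classical genes H2-K1 and H2-D1 or from the less variable H2-Q, H2-T and H2-M genes, bound to the light chain beta-2 microglobulin (B2m). Peptides are pumped into the endoplasmic reticulum by the transporter Tap1/Tap2, trimmed by the aminopeptidase Erap1 and loaded with the help of tapasin (Tapbp), while Nlrc5 is the transactivator of class I genes. Class II molecules show peptides from endosomes to helper T cells and are made mainly by macrophages, dendritic cells and B cells, although interferon gamma can induce them in fibroblasts. Their chains (H2-Aa, H2-Ab1, H2-Eb1) travel with the invariant chain Cd74, exchange peptides with the help of H2-DM, and are transcribed under Ciita with the factors Rfx5 and Rfxap. Variants of ERAP1 and of the class I gene HLA-B are known risk factors for ankylosing spondylitis in people. SKG mice arose on BALB/c, which carries another MHC haplotype than the C57BL/6J reference genome. Whether reads of these variable genes were lost or moved to a neighbouring gene was not tested.

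The promoters of class I and class II genes share a short box, the Y box, which binds the factor NF-Y and lies close to the start of transcription. Class I promoters also carry an element for interferon-activated factors. To show where these letters lie, the promoters of the 2 classical class I genes, of B2m and of 3 class II genes are printed. Of these 6, only H2-K1 and H2-D1 held the interferon form as searched, GAANNGAAA. The printed B2m bases hold gaaactgaaa, in which GAA and GAAA lie farther apart, so the searched form could not match it. Whether B2m lacks an interferon element was therefore not tested. The sequences are RefSeq's, build GRCm38.p6, each the 200 bases just before a listed start of transcription on the strand of the gene, written 5′ to 3′. Capitals mark ATTGG, the core of the Y box, or GAANNGAAA, the interferon form, on either strand, so that a Y box core on the other strand reads CCAAT.
B2m, chr2:122147487-122147686, plus strand: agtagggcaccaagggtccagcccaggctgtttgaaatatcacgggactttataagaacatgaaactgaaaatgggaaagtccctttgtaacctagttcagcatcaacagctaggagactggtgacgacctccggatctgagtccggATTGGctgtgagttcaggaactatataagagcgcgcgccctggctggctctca
H2-K1, chr17:34000348-34000547, minus strand: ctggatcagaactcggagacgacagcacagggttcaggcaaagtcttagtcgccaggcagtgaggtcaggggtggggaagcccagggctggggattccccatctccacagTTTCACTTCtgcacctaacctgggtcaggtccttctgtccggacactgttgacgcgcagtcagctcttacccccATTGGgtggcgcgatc
H2-D1, chr17:35262894-35263093, plus strand: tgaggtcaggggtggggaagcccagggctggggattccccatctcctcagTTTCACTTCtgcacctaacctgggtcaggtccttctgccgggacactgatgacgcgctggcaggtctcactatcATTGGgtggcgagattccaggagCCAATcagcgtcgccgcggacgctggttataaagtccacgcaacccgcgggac
H2-Aa, chr17:34287824-34288023, minus strand: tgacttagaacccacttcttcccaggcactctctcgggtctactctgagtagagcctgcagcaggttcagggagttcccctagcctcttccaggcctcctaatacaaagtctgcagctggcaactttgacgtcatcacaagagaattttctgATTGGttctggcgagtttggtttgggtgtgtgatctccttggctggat
H2-Eb1, chr17:34305667-34305866, plus strand: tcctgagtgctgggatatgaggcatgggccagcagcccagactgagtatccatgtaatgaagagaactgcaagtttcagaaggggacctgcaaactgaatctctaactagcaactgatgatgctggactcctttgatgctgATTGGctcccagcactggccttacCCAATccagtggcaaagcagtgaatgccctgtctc
H2-DMb1, chr17:34152991-34153190, plus strand: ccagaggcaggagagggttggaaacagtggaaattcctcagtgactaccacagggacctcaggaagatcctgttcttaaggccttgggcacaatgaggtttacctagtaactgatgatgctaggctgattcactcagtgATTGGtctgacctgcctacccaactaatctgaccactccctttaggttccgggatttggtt

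In this layout the ATTGG core began at position -53 in B2m, -48 in H2-Aa and -61 in H2-DMb1, where -1 is the base just before the start. The interferon form began at -90 in H2-K1 and at -150 in H2-D1. H2-K1 has another listed start, from which the form began at -104. The printed H2-K1 bases lie inside the span given for the gene, chr17:33996012-34000619, whose 5′ end lies farther upstream. Promoters of 28 of the 44 members were in the RefSeq table, 19 of class I and 8 of class II, as windows from 250 bases before to 50 bases after the start. ATTGG was found in 15 of the 19 class I and in 8 of the 8 class II promoters, against 41.1% of the 27025 genes in the table. GAANNGAAA was found in 8 of the 19 class I promoters, those of H2-K1, H2-D1, H2-M2, H2-M3, H2-Q4, H2-Q6, H2-Q7 and H2-Q10, and in 0 of the 8 class II promoters, against 8.68% of genes. The NF-kB form was found in 12 class I and 6 class II promoters (53.5% of genes), and TGACG, the core of a cAMP response element, in 9 and 1 (23.05% of genes). All motifs were searched on both strands, and a match says only that the letters are there. Other spellings of an interferon element, such as the wider spacing in B2m, were not searched.

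Total estimated counts per sample lay between 16720612 and 18290873. Levels are given in CPM, the estimated count of a gene relative to the scaled total of its sample. A gene with a count of 0 could still have been present at up to 3 counts, or 0.147 to 0.188 CPM depending on the sample; this covers counting error only. Fibroblast genes were abundant in every sample, with Col1a1 at 10798 to 25592 CPM. The 10 fibroblast and tendon genes summed to 81584 to 115052 CPM in diseased and 60619 to 86859 CPM in un-diseased samples, and 8 were fitted higher and 2 lower in diseased samples. Markers of macrophages and monocytes were present too: 18 of 18 were in the table, and their summed level was 197 to 533 CPM in diseased and 46.9 to 264 CPM in un-diseased samples. The 5 B cell markers summed to under 1 CPM in every sample (0.196 to 0.682 CPM), and the 8 T and NK cell markers to 3.03 to 9.52 CPM. Dendritic cell markers summed to 16.4 to 35.2 CPM in diseased and 43.3 to 48.3 CPM in un-diseased samples. Only 3 of these 8 markers could be tested, and 1 was fitted higher and 2 lower in diseased samples. Whether the number of dendritic cells differed was not tested. Neutrophil markers summed to 47.8 to 139 CPM in diseased and 4.40 to 120 CPM in un-diseased samples, and the 7 endothelial markers to 47.3 to 64.6 and 58.4 to 84.5 CPM. Diseased replicate 3 and un-diseased replicate 3 stand apart in several of the results that follow, and values without them are given there.

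Across the 34 tested members the fitted log2 fold change, diseased over un-diseased, was above 0 in 31 and below 0 in 3. The median was 0.66, against 0.02 over all 13264 tested genes. With edgeR's quasi-likelihood test and Benjamini-Hochberg adjustment over all tested genes, 1 member, the class I gene H2-Q8, passed the threshold of 0.05 upward, and none fell; 1.61% of all tested genes passed upward and 2.13% downward. With the replicate number as a block, 16 members passed upward and 0 downward, against 10.5% and 13.3% of all genes. At an unadjusted p under 0.05 in the comparison without the block there were 19 higher members (13.4% of all genes), and in 17 the groups did not overlap, the diseased samples being higher (16.5% of all genes). DESeq2 called 10 upward and 0 downward, against 4.79% and 6.65% of all genes, and limma-voom 2 and 0, against 1.62% and 2.16%. Of the members, 9 had a q-value under 0.05 in the authors' deposited table and were higher in diseased samples, against 3.30% of its 17419 genes, and none was lower, against 4.52%. In these bulk samples more cells of a type and more RNA per cell cannot be told apart.

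**Figure D1:**
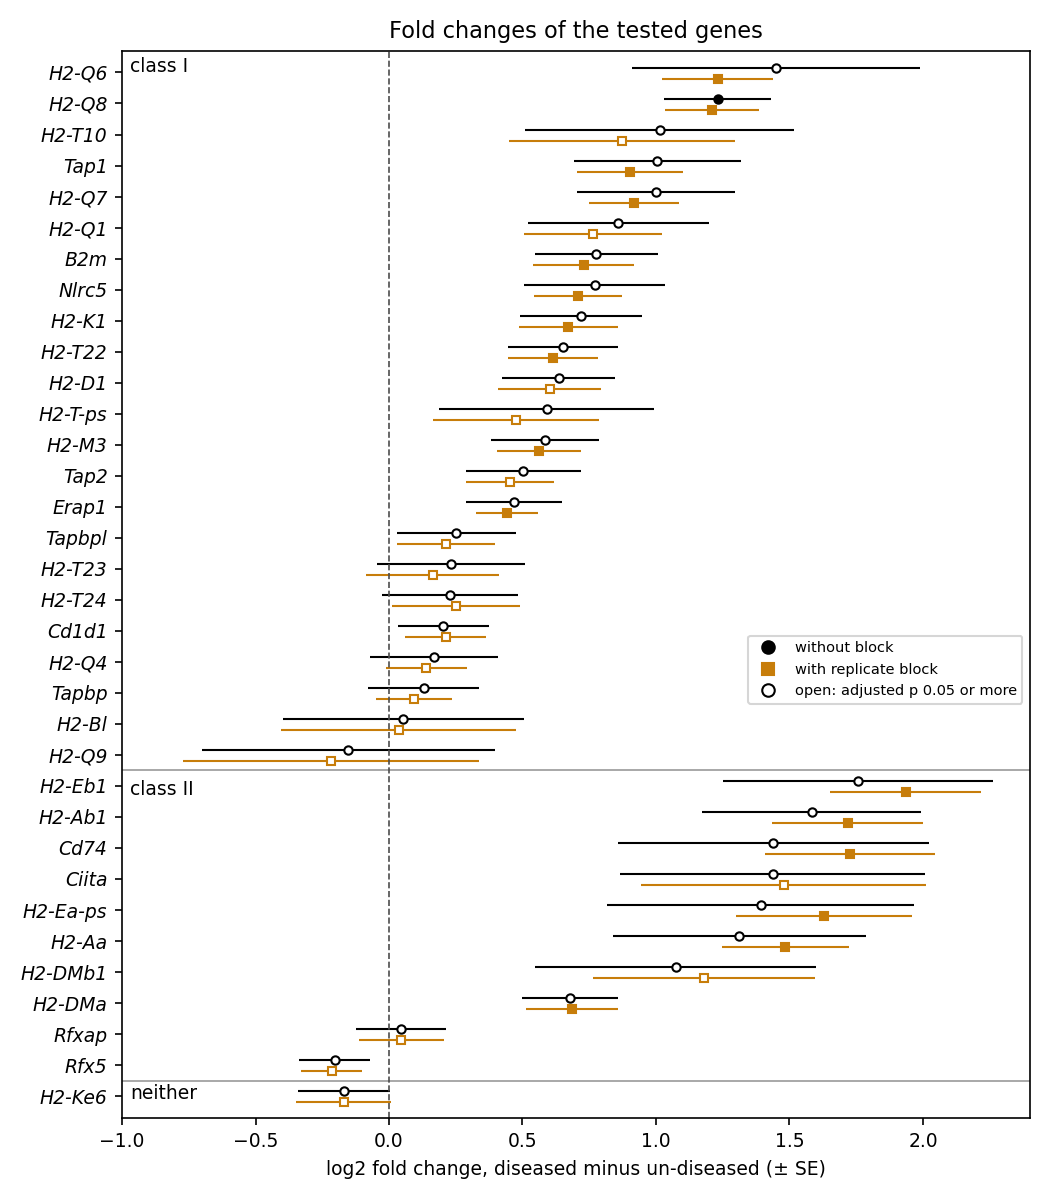
Log2 fold change (diseased minus un-diseased) of the 34 tested members, grouped by class, with bars for 1 standard error on each side; circles are from the comparison without the replicate block, squares from that with it, and open symbols have an adjusted p of 0.05 or more. The 4 class II chains lie between 1.31 and 1.76 without the block, and 3 members lie below 0.

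Class I heavy chains came from 22 genes, of which 15 were tested, and 14 of the 15 had a fold change above 0. Their summed level was 3388, 2798 and 5027 CPM in diseased replicates 1, 2 and 3 and 2469, 2479 and 2304 CPM in un-diseased replicates 1, 2 and 3. Every diseased sample was above every un-diseased one, but replicate 2 was only slightly so. The log2 ratio within same-numbered pairs was 0.46, 0.17 and 1.13. H2-K1 and H2-D1 supplied most of it, with 2277 to 4019 CPM together in diseased samples and 1795 to 1989 CPM in un-diseased ones.

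H2-K1 (gene ID 14972, chr17:33996012-34000619) encodes the classical K heavy chain. Its levels were 1259, 1001 and 1851 CPM in diseased samples 1 to 3, and 861, 825 and 813 CPM in un-diseased samples 1 to 3. The groups did not overlap, and the diseased samples spread far more widely: the means were 1370.4 ± 436 and 833 ± 24.9 CPM (SD, n = 3 in each group). The log2 fold change was 0.72 (SE 0.23), with an edgeR adjusted p of 0.111 and of 0.0349 with the replicate block. H2-D1 (gene ID 14964, chr17:35263094-35267497), another classical heavy chain gene, was at 1554, 1276 and 2168 CPM in diseased and at 1128, 1108 and 982 CPM in un-diseased samples. It too had groups that did not overlap. Its log2 fold change of 0.63 (SE 0.21) had an edgeR adjusted p of 0.121, and the block left it above the threshold at 0.0547. DESeq2 put both below the threshold, H2-K1 at an adjusted p of 0.0229 and H2-D1 at 0.0338.

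The H2-Q genes encode non-classical heavy chains of the Qa region, some of them anchored to the membrane by lipid or secreted. H2-Q8 (gene ID 15019) was at 57.4, 43.1 and 72.3 CPM in diseased samples and at 27.8, 24.9 and 20.9 CPM in un-diseased ones. Its lowest diseased value lay well above its highest un-diseased value. It rose, with means of 57.6 ± 14.6 CPM in diseased and 24.5 ± 3.45 CPM in un-diseased samples (SD, n = 3 each), and the log2 fold change was 1.23 (SE 0.20, edgeR adjusted p 0.0277). The call was lost, with the direction kept, without diseased replicate 1 (adjusted p 0.0585), diseased replicate 3 (0.119), un-diseased replicate 2 (0.0948) or un-diseased replicate 3 (0.0797), all by edgeR. In those runs 0.63%, 0.04%, 0.07% and 0.27% of all tested genes passed, against 3.73% with all samples. The log2 fold change of H2-Q8 was 1.04 to 1.24 in them. In the authors' deposited table its q-value was 1.12e-05.

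H2-Q7 (gene ID 15018, chr17:35439140-35443773) and H2-Q6 (gene ID 110557, chr17:35424850-35430055) are close relatives of H2-Q8. H2-Q7 was at 50.9, 35.6 and 86.4 CPM in diseased and at 29.2, 25.3 and 31.9 CPM in un-diseased samples. The groups were apart by a small margin, and the log2 fold change of 1.00 (SE 0.30) had an edgeR adjusted p of 0.0967. With the block it passed at 0.00821. H2-Q6 was at 31.4, 27.9 and 109 CPM in diseased and at 15.6, 17.2 and 29.0 CPM in un-diseased samples. Diseased replicate 3 stood far above the other 5 samples, and the groups overlapped. The log2 fold change of 1.45 (SE 0.54) missed the threshold (edgeR adjusted p 0.142) but passed with the block, at 1.23 (SE 0.21) and an adjusted p of 0.00650.

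H2-Q9 ran otherwise, with 3.45, 3.92 and 10.5 CPM in diseased and 9.47, 7.65 and 2.73 CPM in un-diseased samples. Within pairs 1 and 2 the diseased sample was lower, and within pair 3 it was higher. Its log2 fold change was -0.15 (SE 0.55, edgeR adjusted p 0.875). With the block and without replicate 3 it was the only class I member to pass downward, at -1.21 (edgeR adjusted p 0.0335). These genes are near-identical copies, so reads can be split among them: the estimated counts of 14 of the 22 heavy chain genes were not whole in any of the 6 samples. The values of single heavy chain genes are therefore uncertain. Summed over H2-Q6, H2-Q7, H2-Q8 and H2-Q9 the level was 143, 111 and 278 CPM in diseased and 82.1, 74.9 and 84.6 CPM in un-diseased samples, with no overlap. As a ratio to H2-K1 plus H2-D1 this was 0.0509, 0.0485 and 0.0692 in diseased and 0.0413, 0.0388 and 0.0471 in un-diseased samples.

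H2-Q4, another gene of this region, was at 226, 239 and 389 CPM in diseased and at 201, 287 and 271 CPM in un-diseased samples. The groups overlapped, and its log2 fold change was 0.17 (edgeR adjusted p 0.667). H2-Q1 was at 13.1, 7.30 and 20.8 CPM in diseased and at 7.90, 7.58 and 7.25 CPM in un-diseased samples. Here too replicate 2 of the diseased group lay among the un-diseased values.

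Among the H2-T genes, which encode further non-classical heavy chains, H2-T22 (gene ID 15039, chr17:36037128-36042742) was at 69.4, 59.5 and 105 CPM in diseased and at 55.3, 47.3 and 46.1 CPM in un-diseased samples. H2-T22 is a ligand of gamma-delta T cells. Its groups did not overlap, and its log2 fold change of 0.65 (SE 0.21) had an edgeR adjusted p of 0.111, and of 0.0339 with the block. H2-T23, which encodes Qa-1, the ligand of the NK receptor CD94/NKG2A, was at 90.2, 79.5 and 165 CPM in diseased and at 109, 99.4 and 77.4 CPM in un-diseased samples. Only diseased replicate 3 exceeded all un-diseased values, and the log2 fold change was 0.23 (edgeR adjusted p 0.601). The other tested H2-T genes were low: H2-T10 was at 1.56 to 7.52 CPM over the 6 samples, and none passed the test with or without the block. H2-M3 (gene ID 14991, chr17:37270234-37274485), which presents formylated bacterial and mitochondrial peptides, was at 12.8, 10.9 and 18.0 CPM in diseased and at 8.34, 9.71 and 9.79 CPM in un-diseased samples. The groups did not overlap, and the log2 fold change of 0.58 (SE 0.20) passed only with the block (edgeR adjusted p 0.125, and 0.0373 with the block).

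**Figure D2:**
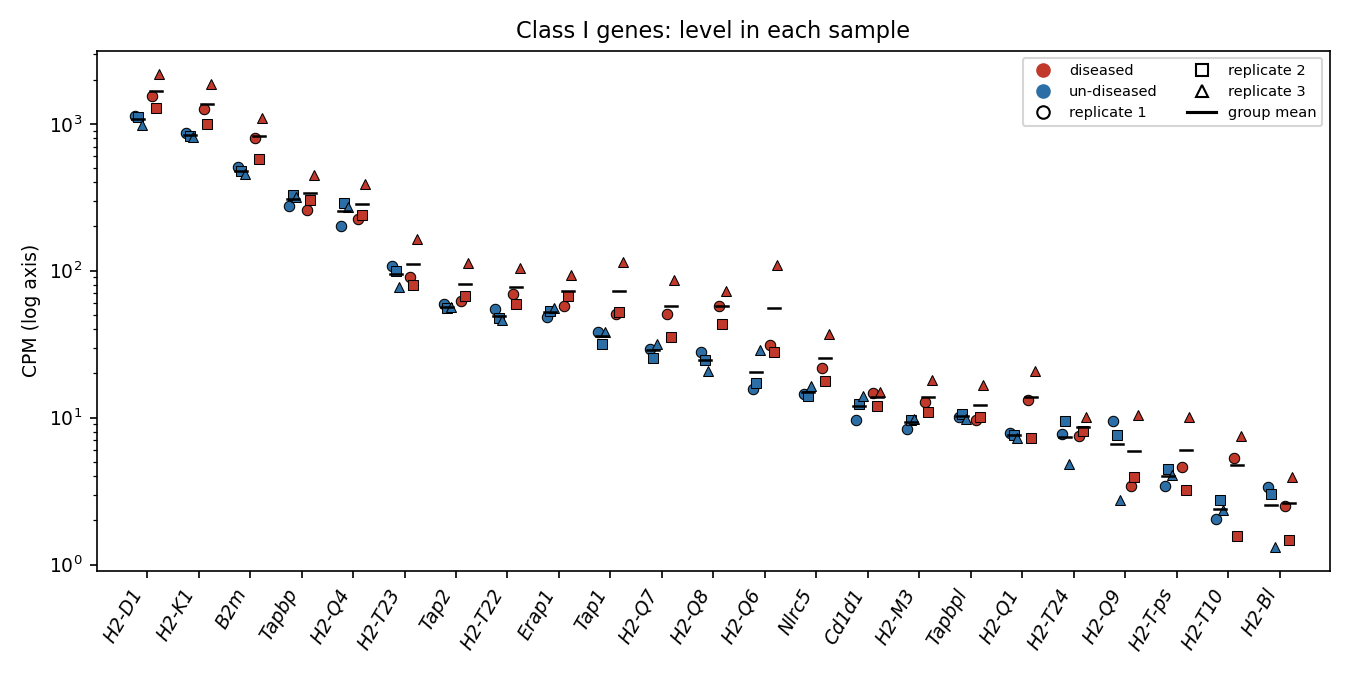
Level of the 23 tested class I members in each sample, in CPM on a log axis, with 1 point per sample and a line at each group mean. Diseased replicate 3 is the highest sample for every gene shown, and the un-diseased samples lie close together for B2m, H2-K1 and H2-D1.

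The 8 light chain, transport, loading and regulator genes all had fold changes above 0, from 0.13 to 1.00 on the log2 scale, and none passed the test without the block. B2m (gene ID 12010, chr2:122147687-122153082) was at 804, 573 and 1089 CPM in diseased and at 508, 479 and 452 CPM in un-diseased samples. The 2 groups did not overlap, and the means were 822 ± 259 and 479.8 ± 28.1 CPM (SD, n = 3 in each). A log2 fold change of 0.78 (SE 0.23) had an edgeR adjusted p of 0.0963, and 0.0283 with the block. B2m over the summed heavy chains was 0.237, 0.205 and 0.217 in diseased and 0.206, 0.193 and 0.196 in un-diseased samples, with overlapping groups. Per kilobase of exon, a scale on which genes can be set side by side, B2m (956 in diseased and 558 in un-diseased samples), H2-K1 (828 and 503) and H2-D1 (792 and 510.3 CPM per kilobase) had the highest levels of the members with a length.

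Tap1 (gene ID 21354, chr17:34187556-34197225) was at 50.9, 52.1 and 115 CPM in diseased and at 38.2, 31.7 and 38.5 CPM in un-diseased samples. All diseased samples were higher, and replicate 3 was far above the other two. Its log2 fold change of 1.00 (SE 0.31) had an edgeR adjusted p of 0.108, and 0.0157 with the block. Its partner Tap2 (gene ID 21355, chr17:34204479-34216321) was at 62.4, 67.5 and 112 CPM in diseased and at 59.0, 55.5 and 56.4 CPM in un-diseased samples. The groups were apart by a narrow margin, and the log2 fold change of 0.50 (SE 0.22) passed in neither comparison (edgeR adjusted p 0.180, and 0.0781 with the block). Tapasin (Tapbp, gene ID 21356, chr17:33919478-33929290) was at 260.5, 303 and 447 CPM in diseased and at 276, 328 and 319.6 CPM in un-diseased samples. Its groups overlapped, the log2 fold change was 0.13 (SE 0.21, edgeR adjusted p 0.706), and without diseased replicate 3 it was -0.13.

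Erap1 (gene ID 80898, chr13:74639573-74693205) was at 57.4, 67.4 and 93.7 CPM in diseased and at 48.7, 53.1 and 56.1 CPM in un-diseased samples. The groups did not overlap, although diseased replicate 1 lay only just above the highest un-diseased sample. Its log2 fold change of 0.47 (SE 0.18) had an edgeR adjusted p of 0.149, and 0.0298 with the block. Its counts were not whole in any sample. Nlrc5 (gene ID 434341, chr8:94434335-94527272) was at 21.7, 17.8 and 37.4 CPM in diseased and at 14.5, 14.2 and 16.4 CPM in un-diseased samples. This regulator had groups that did not overlap, and its log2 fold change of 0.77 (SE 0.26) had an edgeR adjusted p of 0.124, and 0.0197 with the block. Tapbpl, a second peptide editor related to tapasin, and Cd1d1, which presents lipids to NKT cells, had log2 fold changes of 0.25 and 0.20 with overlapping groups.

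Much of the class I difference lay in diseased replicate 3. All 23 tested class I members were highest of the 6 samples in diseased replicate 3, whereas 15.9% of all tested genes were. Within the diseased group 15 of the 23 were lowest in replicate 2, against 36.5% of all tested genes. The median log2 fold change of the class I members was 0.59, and 0.36 without diseased replicate 3; within pairs 1, 2 and 3 the median was 0.41, 0.16 and 1.18. Over all tested genes the pair medians were 0.00, 0.01 and 0.02. With the block 10 class I members passed upward, against 10.5% of all tested genes. Without replicate 3 the block gave 3 upward and 1 downward, when 7.53% of all tested genes passed in either direction. Macrophage markers moved another way among the diseased samples: 14 of the 17 tested ones were lowest of the 3 in replicate 3, against 25.4% of all tested genes.

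**Figure D3:**
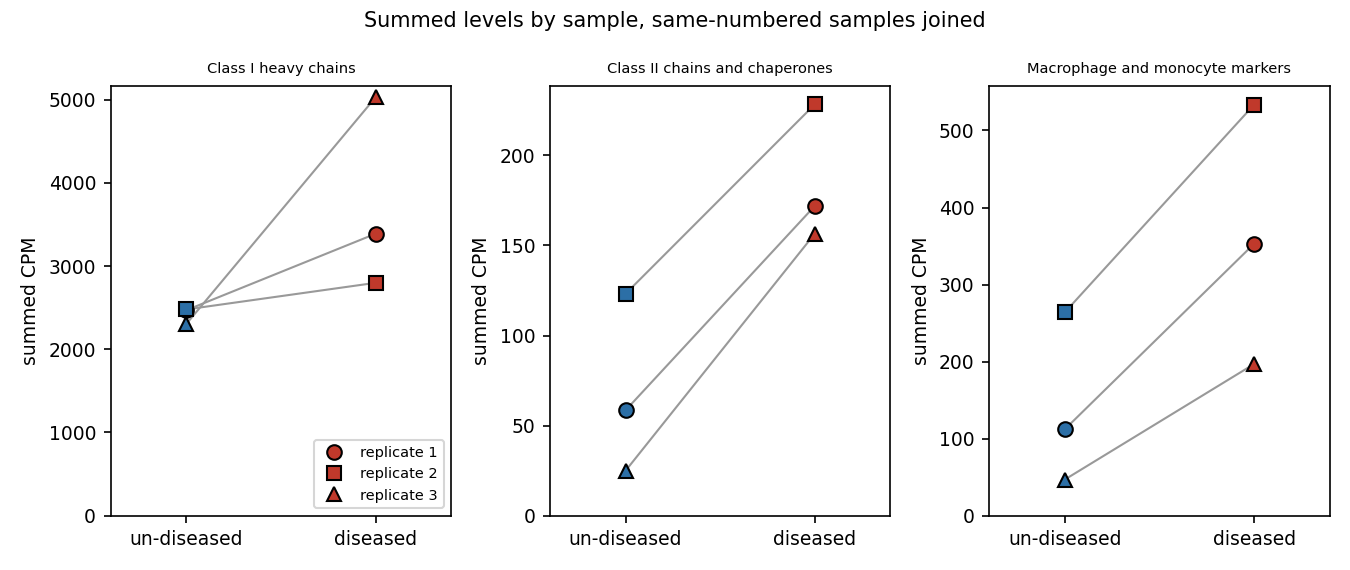
Summed level of the class I heavy chain genes, of the class II chains with their chaperones and of the macrophage markers in each of the 6 samples, in CPM on axes that start at 0, with lines joining same-numbered samples. Class I is highest in diseased replicate 3, while the class II and macrophage sums are highest in diseased replicate 2 and lowest in un-diseased replicate 3.

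Fitted fold changes of class II genes were mostly larger than those of class I genes, and the levels of the chains and of Cd74 varied widely among the un-diseased samples. Of the 10 tested class II members 9 had a fold change above 0, the median was 1.35 on the log2 scale, and 0 passed edgeR's test without the block. At an unadjusted p under 0.05 there were 7, all higher in diseased samples (13.4% of all tested genes). With the block 6 passed, all upward (10.5% of all tested genes), and DESeq2 called 4 upward (4.79%). Within pairs 1, 2 and 3 the median was 1.02, 0.65 and 2.22, and 8 of the 10 were higher in the diseased sample of all 3 pairs (of all tested genes 30.7% were, and 30.1% were lower in all 3). Without un-diseased replicate 3 the median was 0.95, and without un-diseased replicate 2 it was 1.99. That the class II and class I medians differ was not tested.

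Of the chain genes, H2-Ab1 (gene ID 14961, chr17:34263227-34269418), the beta chain of the I-A molecule, was at 32.9, 41.7 and 37.6 CPM in diseased and at 11.2, 21.0 and 5.33 CPM in un-diseased samples. The diseased samples lay close together and above all un-diseased ones, with means of 37.4 ± 4.43 and 12.5 ± 7.91 CPM (SD, n = 3 in each). The log2 fold change of 1.58 (SE 0.41) had an edgeR adjusted p of 0.0747, and 0.00585 with the block. H2-Aa (gene ID 14960, chr17:34282744-34287823), the alpha chain of the same molecule, was at 35.2, 47.2 and 29.0 CPM in diseased and at 12.8, 26.4 and 5.70 CPM in un-diseased samples. The groups did not overlap, but diseased replicate 3 was only slightly above un-diseased replicate 2. For this chain the log2 fold change of 1.31 (SE 0.47) had an edgeR adjusted p of 0.135, and 0.00541 with the block.

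H2-Eb1 (gene ID 14969, chr17:34305867-34316674), the beta chain of the I-E molecule, was at 22.9, 31.2 and 20.6 CPM in diseased and at 6.15, 13.5 and 2.48 CPM in un-diseased samples. It had the largest fitted fold change of the 34 tested members, 1.76 on the log2 scale (SE 0.50), with groups that did not overlap, an edgeR adjusted p of 0.0919 and one of 0.00406 with the block. Its alpha chain partner is listed as H2-Ea-ps (gene ID 100504404, chr17:34341952-34344645), because the gene is a transcribed pseudogene in the C57BL/6J reference. It was at 16.0, 17.8 and 11.1 CPM in diseased and at 4.17, 11.4 and 1.61 CPM in un-diseased samples. The groups overlapped slightly, and the log2 fold change of 1.39 (SE 0.58) had an edgeR adjusted p of 0.168, and 0.0119 with the block. BALB/c mice carry an Ea gene that makes an alpha chain. The counts of all 4 chain genes were whole in all 6 samples.

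The invariant chain Cd74 (gene ID 16149), which holds new class II molecules and guides them to endosomes, was at 54.8, 78.5 and 47.5 CPM in diseased and at 17.9, 42.8 and 6.01 CPM in un-diseased samples. Its means were 60.3 ± 16.2 and 22.2 ± 18.8 CPM (SD, n = 3 in each), and the groups did not overlap. The log2 fold change of 1.44 (SE 0.58) had an edgeR adjusted p of 0.162, and with the block it was 1.73 (SE 0.32) with an adjusted p of 0.00851. Per kilobase of exon Cd74 was the highest class II member, at 42.6 in diseased and 15.7 CPM per kilobase in un-diseased samples, before H2-Aa (32.9 and 13.3) and H2-Ab1 (30.8 and 10.3). B2m lay far above each of these on the same scale.

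H2-DM, the peptide exchanger of endosomes, differed less. H2-DMa (gene ID 14998, chr17:34119693-34139101), its alpha chain, was at 6.41, 6.48 and 6.04 CPM in diseased and at 4.27, 4.26 and 3.28 CPM in un-diseased samples. Both groups were tight and apart, at 6.31 ± 0.232 and 3.94 ± 0.567 CPM (SD, n = 3 in each), and the log2 fold change of 0.68 (SE 0.18) had an edgeR adjusted p of 0.0791, and 0.0259 with the block. The beta chain H2-DMb1 was at 2.96, 4.24 and 4.03 CPM in diseased and at 1.76, 3.08 and 0.496 CPM in un-diseased samples, with a log2 fold change of 1.07 (edgeR adjusted p 0.226). The second beta chain gene, H2-DMb2, was at 0.507 to 1.12 CPM in diseased and 0.0620 to 0.554 CPM in un-diseased samples and was too low to test. H2-Oa and H2-Ob, the chains of the H2-DM inhibitor H2-O that B cells make, were listed at 0 to 0.313 CPM in all samples.

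The regulators went separate ways. Ciita (gene ID 12265, chr16:10480014-10531064), the transactivator that most class II transcription depends on, was at 1.58, 1.31 and 2.09 CPM in diseased and at 1.06, 0.639 and 0.129 CPM in un-diseased samples. The groups did not overlap, but the levels were low: the un-diseased replicate 3 value rests on an estimated count of 2.08, below the 3 counts that a count of 0 allows. Its log2 fold change of 1.44 (SE 0.57) passed neither without nor with the block (edgeR adjusted p 0.157, and 0.0769). Rfx5 (gene ID 53970, chr3:94950689-94961561), a subunit of the factor that binds the X box of class II promoters, was at 20.2, 25.5 and 27.7 CPM in diseased and at 27.8, 27.5 and 29.1 CPM in un-diseased samples. The groups overlapped, with 2 of 3 diseased samples below every un-diseased one, and the log2 fold change was -0.20 (SE 0.13, edgeR adjusted p 0.339). Rfxap, another subunit of that factor, had a log2 fold change of 0.04.

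**Figure D4:**
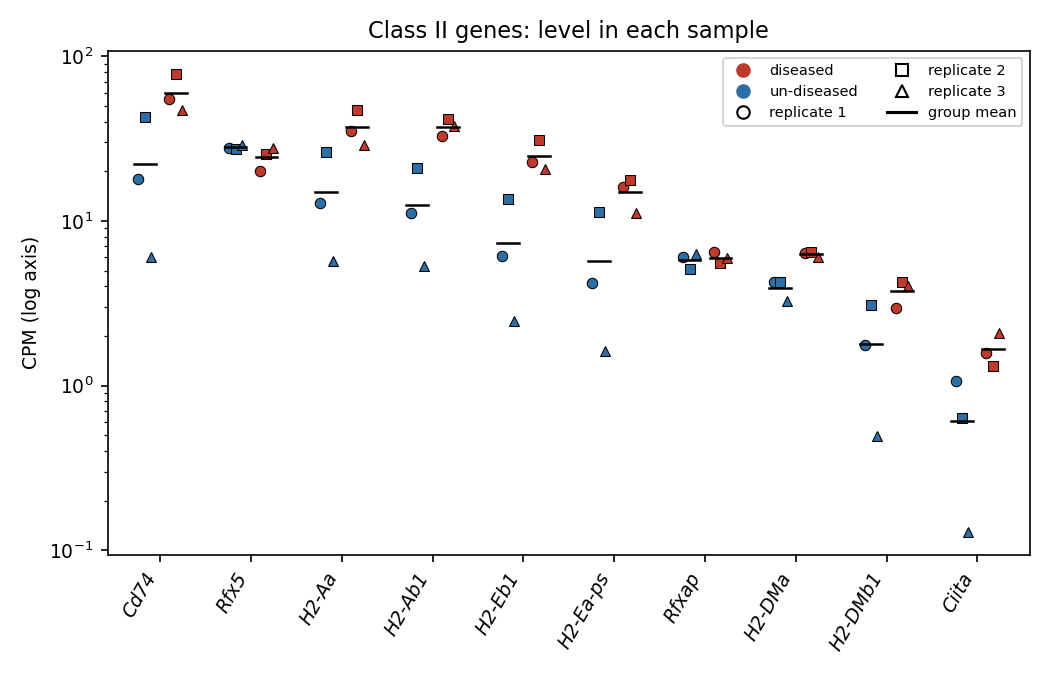
Level of the 10 tested class II members in each sample, in CPM on a log axis, with 1 point per sample and a line at each group mean. The chains and Cd74 are lowest in un-diseased replicate 3 and highest in diseased replicate 2, and Rfx5 lies at nearly the same level in both groups.

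Within each group the summed class II chains and chaperones had the sample order of the macrophage markers, which the neutrophil markers shared. All 7 tested class II chains and chaperones were highest of the 6 samples in diseased replicate 2 (16.4% of all tested genes were) and lowest of the un-diseased samples in replicate 3 (28.7% of all tested genes). Their sum with the untested H2-DM and H2-O genes was 172, 228 and 157 CPM in diseased and 58.5, 123 and 25.0 CPM in un-diseased samples. The 18 macrophage markers summed to 353, 533 and 197 CPM in diseased and to 112, 264 and 46.9 CPM in un-diseased samples. In both groups, and for both sums, replicate 2 was highest and replicate 3 lowest. Single genes varied: 5 of the 7 tested class II chains and chaperones were lowest of the diseased samples in replicate 3 (25.4% of all tested genes). The 7 neutrophil markers summed to 82.6, 139 and 47.8 CPM in diseased and to 19.3, 120 and 4.40 CPM in un-diseased samples, in the same order. The ratio of the class II sum to the macrophage sum was 0.487, 0.428 and 0.796 in diseased and 0.522, 0.467 and 0.532 in un-diseased samples, so that only diseased replicate 3 lay above the un-diseased range and diseased replicate 2 lay just below it. Of the 17 tested macrophage markers 17 had a fold change above 0 (median 1.29), and 0 passed edgeR's test without the block. Of them 7 were higher at an unadjusted p under 0.05 (13.4% of all tested genes). With the block 17 passed upward (10.5% of all tested genes). The part of macrophages or neutrophils in the class II values was not tested. B cell markers, at 0.196 to 0.560 CPM in diseased and 0.376 to 0.682 CPM in un-diseased samples, overlapped between the groups.

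The genes around the pathway were taken from 7 lists. In 2 of them a gene passed edgeR's test without the block, and both genes fell. Cst3, the cysteine protease inhibitor cystatin C, is in the list of class II endosomal processing (9 tested, median log2 fold change 0.07). It was at 618, 583 and 538 CPM in diseased and at 903, 868 and 901 CPM in un-diseased samples and fell by 0.62 on the log2 scale (SE 0.13, edgeR adjusted p 0.0435). The groups were far apart for this gene, and with the block Ctsl, an endosomal protease that acts on the invariant chain, fell as well (log2 fold change -0.54, adjusted p 0.0267). Ctss, the protease of class II-bearing cells that removes the invariant chain, rose with the block at 2.07 (SE 0.30, edgeR adjusted p 0.00382) and followed the macrophage order, with 49.1, 57.0 and 28.3 CPM in diseased and 12.1, 23.0 and 2.79 CPM in un-diseased samples. Ifi30, a thiol reductase of endosomes, also rose there at 0.46 (edgeR adjusted p 0.0467), and Ctsz at 0.31 (edgeR adjusted p 0.0495). Of this list 3 rose and 2 fell with the block, against 10.5% and 13.3% of all tested genes.

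Nfya, a subunit of the Y box factor NF-Y, is in the list of MHC transcription factors (8 tested, median 0.07). Its levels were 37.2, 39.5 and 36.6 CPM in diseased and 57.2, 54.2 and 50.3 CPM in un-diseased samples. The groups lay well apart, and it fell by 0.51 on the log2 scale (SE 0.09, edgeR adjusted p 0.0349). The pathway lists held 0 calls when any 1 sample other than un-diseased replicate 1 was left out, and 4 calls without that sample. Of all tested genes 0.04% to 0.91% passed in the runs with 0 calls, and 7.99% in the run with 4. With the block Creb1, which binds cAMP response elements, fell too (-0.35, edgeR adjusted p 0.0310).

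None of the other 5 lists held a gene past edgeR's test without the block. With the block 10.5% of all tested genes rose and 13.3% fell. Of the 5 genes of the immunoproteasome and its activator, which cut peptides for class I, all had fold changes above 0 (median 0.38), and Psmb8 and Psmb9 rose with the block. Psmb8 was at 33.8, 30.6 and 69.1 CPM in diseased and at 26.1, 20.0 and 22.9 CPM in un-diseased samples, again with diseased replicate 3 highest (with the block 0.86, edgeR adjusted p 0.0236). Of 7 peptide loading partners (median 0.18) 3 rose with the block: the chaperone Calr, the disulfide isomerase Pdia3 and the translocon subunit Sec61b. Calr, calreticulin, was at 936, 1372 and 1117 CPM in diseased and at 720.1, 866 and 669 CPM in un-diseased samples, with no overlap.

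The 8 tested genes of interferon gamma signalling had a median of -0.31, with 3 fold changes above 0 and 5 below. With the block 1 gene of this list rose (10.5% of all tested genes) and 4 fell (13.3%). Those that fell were the kinases Jak1 and Jak2 and the inhibitors Socs1 and Ptpn2. Jak2 was at 120, 249 and 195 CPM in diseased and at 206, 336 and 318 CPM in un-diseased samples. These groups overlapped, although each diseased sample lay below the un-diseased one of the same number (-0.64 with the block, edgeR adjusted p 0.00713). Irf1, a transcription factor that acts on class I promoters, was at 187, 164 and 370 CPM in diseased and at 274, 123 and 189 CPM in un-diseased samples, with overlapping groups. Of 6 tested co-stimulation and checkpoint genes (median -0.20) Cd86 rose with the block, and the adhesion molecule Icam1 (-1.48, edgeR adjusted p 0.00422) and Cd40 fell. Of the 4 tested genes for other class I-like proteins (median -0.26) the protein C receptor Procr fell with the block (-1.18, edgeR adjusted p 0.00241).

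The remaining members gave little. H2-Ke6 was at 6.41, 6.91 and 8.20 CPM in diseased and at 8.96, 8.33 and 6.88 CPM in un-diseased samples, with overlapping groups and a log2 fold change of -0.17 (SE 0.17, edgeR adjusted p 0.534). The 7 untested class I genes, H2-M2, H2-M5, H2-M9, H2-Q2, H2-Q10, H2-T3 and H2-T18, had an estimated count of at most 9.56 in any sample. H2-T24, H2-T-ps and H2-Bl were tested and had log2 fold changes of 0.23, 0.59 and 0.05.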

How the data were processed

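Fibroblast RNA was isolated with TRIzol and sequenced as paired reads on the BGISEQ-500 platform, per the labels. The table deposited by the authors gives estimated counts per gene and sample. The submitters' processing notes name HISAT2 2.0.4, RSEM 1.3.1, DESeq2 1.4.5 and GRCm38, without their role or order. A log2 ratio, p-value and q-value per gene from the authors' deposited table served only for comparison. Not whole were 9.61% of the estimated counts; all values were rounded before tests.

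The filter was edgeR's filterByExpr (edgeR 4.0.16, R 4.3.3; least count 10), and 13264 genes passed it. After TMM scaling the diseased samples were tested against the un-diseased ones with edgeR's quasi-likelihood test, two-sided, with Benjamini-Hochberg adjustment over all tested genes. Alternatives were the replicate block, DESeq2 1.42.0, limma-voom (limma 3.58.1), RLE or upper-quartile factors, 2 other filters, a threshold of 0.01 and leaving out each sample or pair. The steps were tested on simulated data. Within-pair log2 ratios had 0.5 CPM added. Lengths are exon unions of the GENCODE vM21 basic annotation; positions are RefSeq's on GRCm38, 1-based, and none is given for genes on alternate scaffolds.

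The members and lists were chosen with earlier results of these data known. Members named with every statistic were 14 listed genes and any other called with or without the block at a mean of at least 5 CPM; of the pathway lists, up to 4 called genes each with the smallest adjusted p, with further ones as values. No label states that the samples within a group are different animals or cultures. The p-values therefore rest on the spread between these samples alone, which may be technical, although counts of samples within a group varied well beyond sampling noise (chi-square per gene 25.4 to 61.8). Same-numbered samples deviated together from their group means (correlations over genes 0.487, 0.578 and 0.276), and every sample correlated best with its namesake. For diseased replicate 3 the margin was small, 0.276 against 0.137 with un-diseased replicate 1. The labels do not say that equal numbers pair samples, so the main comparison had no block. Because of these correlations the numbers served as pairs in the block and in the within-pair ratios. The correlations come from the same counts that the block tests, so they are no separate evidence of pairing. The table had 0 columns of other samples. One gene of the pathway lists is not reported here.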

Additional observations from a re-analysis of the deposited data

How the results depend on the processing

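The counts of calls depended on the fit far more than the fold changes did. Against 1 of the 34 members called by edgeR without the block, DESeq2 called 10, limma-voom 2 and the replicate block 16; the block without pair 1, 2 or 3 called 12, 20 and 8, when 19.3%, 15.6% and 7.53% of all tested genes passed. For class I the main count was 1, DESeq2 gave 6, the block 10, and the block without pair 1, 2 or 3 gave 8, 14 and 4. For class II it was 0, with 4 by DESeq2, 1 by limma-voom, 6 with the block and 4, 6 and 4 without pair 1, 2 or 3. For the 47 tested genes of the pathway lists the main count was 2, with 10 by DESeq2 and 21 with the block. The block without pair 1, 2 or 3 called 13, 16 and 5 of them. For comparison, 3.73% of all tested genes passed in the main run, 11.4% by DESeq2 and 23.9% with the block. At a threshold of 0.01 all 4 counts were 0. Leaving out 1 sample gave 0 to 1 members, 0 to 1 in class I, 0 in class II and 0 to 4 in the pathway lists. In those runs 0.04% (without diseased replicate 3) to 7.99% (without un-diseased replicate 1) of all tested genes passed, so calls changed across all genes. RLE and upper-quartile factors and both other filters moved none of these counts by more than 1.5 times. The class I median of 0.59 ranged from 0.36 to 0.80 when 1 sample was left out, and the class II median of 1.35 from 0.95 to 1.99; with the block they were 0.56 and 1.48. Of 21 named members 20 kept their direction under every alternative run; Tapbp ran from -0.13 (without diseased replicate 3) to 0.29 (without diseased replicate 1) and turned to -0.10 with the block and without pair 3. Among the members the block changed no other call than those given beside the results. Upper-quartile factors moved the median of all genes to 0.10 and the share of upward calls from 43.0% to 59.1%; the class I median was then 0.68. Depth limits the low members, among them Ciita, H2-DMb1 and the untested ones.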
